A study of Macaca fascicularis with 16 samples.

Results

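The infrarenal aorta, the stretch of the vessel below the renal arteries, was compared with the ascending, descending and suprarenal aorta of young cynomolgus monkeys (Macaca fascicularis) described as normal. The 4 libraries titled as infrarenal were set against the other 12 of the 16 libraries, with 4 in each of the suprarenal, descending and ascending regions. All animals were at baseline, and the labels give no treatment, genotype, sex or exact age. The contrast is the infrarenal mean minus the mean of the other 3 region means, on the log2 scale, fitted over all 16 libraries with the replicate number (1 to 4 in each region) as a block. It was repeated without infrarenal replicate 1, a library whose counts favour short transcripts, as seen in the data. The labels do not say whether libraries with the same number come from the same animal, nor that those with different numbers come from different animals. The p-values therefore measure the spread between these libraries, which may be technical. The series title names NOTCH3 and the dispersion of elastic fibres in the infrarenal aorta as the question, and NOTCH3, ELN and FBN1 are given first among the genes for that reason.

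The aortic wall is mainly smooth muscle cells with elastic lamellae, an inner endothelium and an outer layer of fibroblasts, nerves and fat. Its smooth muscle has several embryonic origins along the length of the vessel. Neural crest and heart field cells build the ascending part, and mesoderm of the trunk builds the rest. HOX transcription factors record position along the body axis, with the posterior members active towards the tail, and adult vessels keep much of that pattern. In people the infrarenal segment is the usual site of abdominal aortic aneurysm.

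Library totals, in counts in genes divided by 1e6, were 14.4 to 17.63 in the infrarenal, 14.65 to 21.41 in the suprarenal, 15.95 to 17.75 in the descending and 15.55 to 16.51 in the ascending aorta. Infrarenal replicate 1 stood apart, with a normalization factor (TMM) of 0.735 against 0.977 to 1.08 in the other libraries, and 12.6% of its counts in its 10 largest genes against 5.89% to 8.19%. Its 81 ribosomal protein genes averaged 1.38 above their mean over all libraries on the log2 scale, against -0.35 to 0.29 in the others, and 33 genes of very long transcripts averaged -1.14, against -0.15 to 0.34. Results are therefore given with and without it. Smooth muscle genes were present at high level in every library. MYH11, smooth muscle myosin, had 5680 to 7590 CPM (counts scaled to a library total of 1e6) in the infrarenal and 2950 to 14100 CPM in the other libraries. Posterior HOX genes summed to 213 to 372 CPM in the infrarenal libraries, and each of the 12 others lay below, at 10.3 to 208 CPM.

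Of 15921 genes tested, 680 (4.27%) passed an adjusted p of 0.05 with 16 libraries, of which 278 (1.75%) were higher and 402 (2.52%) lower in infrarenal than in other libraries. At an unadjusted p under 0.05 there were 2356. All adjusted p-values of genes are from the quasi-likelihood test of edgeR with Benjamini-Hochberg adjustment over all genes tested. Scaling by library totals alone left 685 calls but moved the split to 214 higher and 471 lower. Without infrarenal replicate 1, 775 of 16183 genes (4.79%) passed, 312 higher (1.93%) and 463 lower (2.86%). A total of 518 genes (3.25%) were called in the same direction in both fits, 209 higher (1.31%) and 309 lower (1.94%). A gene is said here to have risen or fallen when it was called in both. Of these, 147 of the 209 higher and 224 of the 309 lower genes differed by at least 1 on the log2 scale, and 30 and 42 by at least 3. The 4 infrarenal libraries all lay above the other 12 for 75 tested genes (0.471%) and all below for 144 (0.904%). Single libraries weighed on the count, which was 339 without infrarenal replicate 2 and 437 without infrarenal replicate 4.

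**Figure D1:**
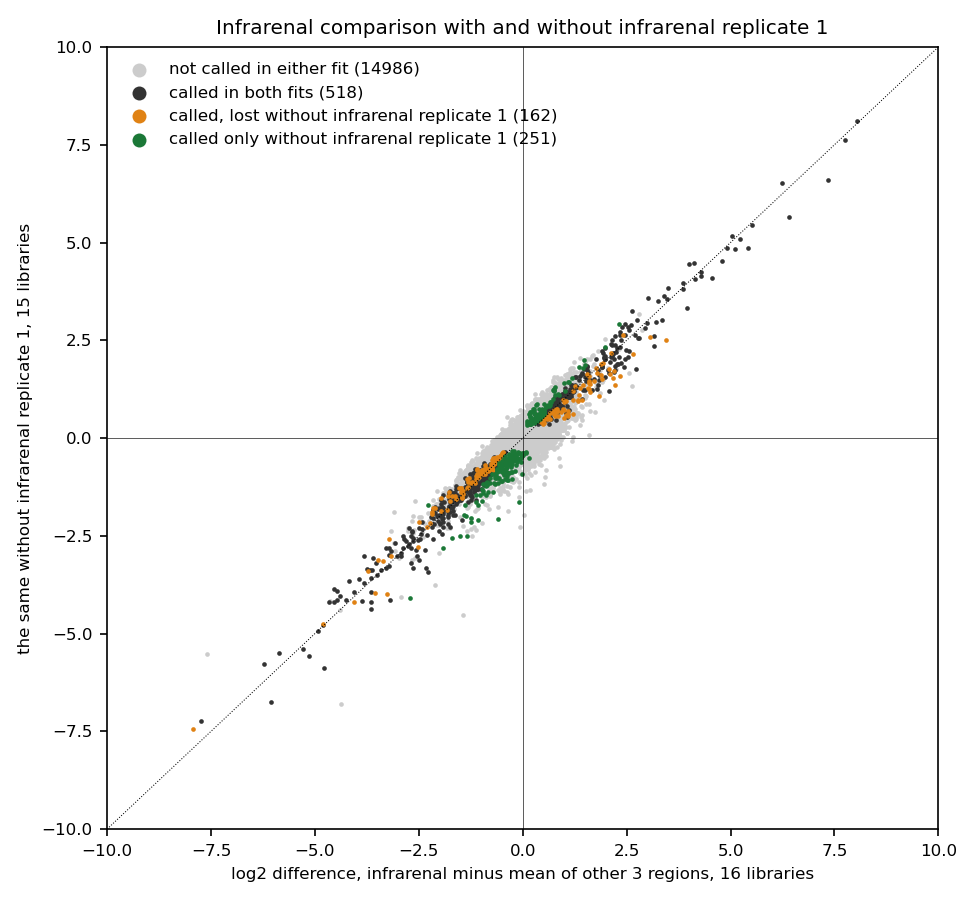
Each point is a tested gene, with its log2 difference (infrarenal minus the mean of the other 3 regions) in the fit of 16 libraries on the x axis and without infrarenal replicate 1 on the y axis. The 518 genes called in both fits (dark) lie near the diagonal, while the 251 called only without that library (green) have median differences without and with it of 0.62 and 0.38 for the 100 higher and of -0.76 and -0.41 for the 151 lower ones.

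NOTCH3 (GeneID 102120202), the Notch receptor found in mural cells of vessels, had 494, 430, 403 and 505 CPM in infrarenal replicates 1 to 4, against 45.1 to 255.7 CPM (median 118) in the other 12 libraries. The lowest infrarenal library lay above the highest of the others, and the log2 difference was 1.97 (SE 0.14, adjusted p = 2.71e-05), or 2.09 without infrarenal replicate 1. ELN (GeneID 102118050), which encodes tropoelastin, had 33.4, 246, 221 and 136 CPM in the infrarenal libraries, against 118 to 636 CPM (median 323) in the others. Infrarenal replicate 1 was the lowest library of all, the other 3 infrarenal libraries overlapped with the rest, and ELN was not called (log2 difference -1.05, SE 0.38, adjusted p = 0.179, and -0.63 without that library). FBN1 (GeneID 102127300), the main protein of microfibrils, had 265, 436, 352 and 459 CPM in the infrarenal libraries, against 316 to 816 CPM (median 575), and was not called either (-0.56, SE 0.20, adjusted p = 0.182). An exact two-sided permutation test that moved the infrarenal label only within each number gave p = 0.00781 for NOTCH3, 0.0156 for ELN and 0.0352 for FBN1, where the smallest p that the assignments allow is 0.00391. Adjusted over these 3 genes, the exact p was 0.0234 for NOTCH3 and ELN and 0.0352 for FBN1. Within numbers 1 to 4 the log2 difference of ELN was -3.09, -1.04, -0.47 and -0.31, so its size rested on number 1, without which the value of the permutation test was -0.61 (exact p = 0.109). For FBN1 it was -0.33 without number 1 (exact p = 0.219).

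Posterior HOX genes rose. Of 24 on the list 15 had enough counts to be tested, and 12 of these (80%, against 1.31% of all tested genes) rose in both fits while 0 fell. All 15 log2 differences were positive, with a median of 3.39 (0.01 over all tested genes), or 2.54 with HOXB8 and HOXD10, which had 0 counts in one of the other regions, put at a floor of 3 counts there. HOXA10 (GeneID 102133638) had 40.1, 42.3, 42.6 and 24.9 CPM in the infrarenal libraries, against 0.0604 to 13.4 CPM (median 1.82) in the other 12, a log2 difference of 5.22 (SE 0.29, adjusted p = 3.97e-06). The groups did not overlap. The infrarenal mean was 37.5 ± 8.47 CPM, against 6.22 ± 4.94 CPM for the suprarenal, 1.87 ± 0.636 CPM for the descending and 0.0922 ± 0.062 CPM for the ascending libraries (SD, n = 4 each). HOXA9 (GeneID 102132881) had 51.3, 47.5, 44.5 and 34.5 CPM in the infrarenal libraries, against 0.0606 to 25.8 CPM (median 3.14), again without overlap (4.80, SE 0.35, adjusted p = 2.71e-05). HOXC9 (GeneID 102136719) had 13.9, 8.73, 9.7 and 5.83 CPM, against 0 to 8.14 CPM (median 0.483), so that 1 infrarenal library lay within the range of the others (5.11, SE 0.47, adjusted p = 0.000138). The farthest from overlap was HOXD10 (GeneID 102127006), with 6.87, 14.8, 16.1 and 2.55 CPM in the infrarenal libraries, against 0 to 0.571 CPM. It had 624 counts over the infrarenal libraries, 9 over the suprarenal, 0 over the descending and 4 over the ascending ones, a fold of at least 141 with a floor of 3 counts over the descending region. HOXD10 overlaps HOXD11 in the annotation, so its reads may not all be its own.

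The other posterior HOX genes filled in the range. HOXD9, chosen after its values were seen like all HOX genes from here to the end of the paragraph except HOXA7 and HOXB7, had 34.4, 35.4, 39.3 and 16.9 CPM in the infrarenal libraries, against 0.185 to 12.5 CPM (log2 difference 4.30). HOXA7 had 92.1, 30.4, 31.3 and 26.7 CPM, with replicate 1 far above the rest, against 0.123 to 48.1 CPM (2.49, and 2.25 without replicate 1). HOXB7 differed by 2.06, HOXC8 by 3.39, HOXC6 by 2.15, HOXD8 by 2.19 and HOXA11 by 4.0. Ranges of HOXC8, HOXC6, HOXB7 and HOXA11 overlapped with those of the suprarenal or descending libraries. HOXC10 was called with 16 libraries (1.36, adjusted p = 0.0144) and not without infrarenal replicate 1 (1.11, adjusted p = 0.0586), and HOXA6 was called without that library (2.91, adjusted p = 0.00905), in which it had 0.0772 CPM against 4.93 to 7.08 CPM in infrarenal replicates 2 to 4. HOXB6 was not called (0.69, adjusted p = 0.0927). HOXD8 lost its call without infrarenal replicate 2 (adjusted p up to 0.101 over all settings tried). In the annotation used for names, HOXC6 and HOXC10 overlap each other and each of HOXC4, HOXC8 and HOXC9. HOXC8 also overlaps HOXC9, and HOXC4 overlaps HOXC5. Whether counting used the strand is not given in the sources used here, so reads may have been split among these genes in ways the counts cannot show.

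Anterior HOX genes went both ways. Of 13 tested, 2 rose and 1 fell in both fits (23.1% called, against 3.25% of all tested genes), with a median of 0.01. HOXC4 (GeneID 102133391) had 27, 38.4, 29.6 and 26.8 CPM in the infrarenal libraries, against 1.09 to 18.9 CPM (median 6.16) in the others, with no overlap (2.55, SE 0.18, adjusted p = 2.71e-05). HOXD4 rose too, at 32.6 to 64.9 CPM against 1.25 to 29.5 CPM (2.26), though leaving out infrarenal replicate 2 or 3 ended its call (adjusted p up to 0.135). HOXA4 (GeneID 102137457) went the other way, with 2.24, 2.41, 4.52 and 3.28 CPM in the infrarenal libraries, against 6.76 to 25 CPM (median 13.7), all infrarenal libraries below the rest (-2.20, SE 0.30, adjusted p = 0.00113). Its gene overlaps HOXA3 in the annotation, and HOXD4 overlaps HOXD3. Among 11 HOX cofactors, MEIS2 fell (-0.90) and 0 rose (9.09% called, against 3.25% of all tested genes).

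Transcription factors of the heart and neural crest that were called fell. Of 26 tested heart and neural crest factors 4 fell in both fits (15.4% called, against 3.25% of all tested genes) and 0 rose, with a list median of -0.41. GATA5 (GeneID 102145505), a zinc-finger factor of heart development, had 4.32, 3.97, 8.2 and 5.89 CPM in the infrarenal libraries, against 6.42 to 70.7 CPM (median 14.1), a difference of -1.70 (SE 0.19, adjusted p = 0.000388). Its infrarenal mean was 5.6 ± 1.92 CPM, against 13.3 ± 6.71 CPM for the suprarenal, 10.2 ± 4.3 CPM for the descending and 47.2 ± 22.1 CPM for the ascending libraries (SD, n = 4 each), so the ascending level was the farthest away. SOX9, a factor of cartilage and neural crest, had 0.386, 0.843, 2.16 and 1.25 CPM in the infrarenal libraries, against 3.62 to 41.9 CPM (median 19.4), with no overlap (-3.61). HAND2 (-1.15) and TBX20 (-3.52), both factors of the developing heart, fell as well, TBX20 from a low level, at 0 to 0.262 CPM against 0.287 to 3.02 CPM. The markers of cardiac muscle that were tested, 5 genes, had 0 calls. All 12 markers on the list, tested or not, summed to 56.4 to 168 CPM in the infrarenal libraries, against 48.2 to 428 CPM in the others. The mean centred log2 level of the 5 tested markers was -1.02 to -0.54 in the infrarenal libraries, below each of the 12 other libraries (-0.46 to 3.4). Their median difference was -1.07, and the part of cardiac muscle in the heart factor values was not tested.

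Of 30 tested factors of the lateral mesoderm and limb 4 fell and 1 rose (16.7% called, against 3.25% of all tested genes). OSR1 (GeneID 102133301), a zinc-finger factor of intermediate mesoderm, had 247, 78, 93.5 and 139 CPM in the infrarenal libraries, against 249 to 1230 CPM (median 710), all below the rest (-2.30, SE 0.28, adjusted p = 0.000751). Its relative OSR2 had 7.49 to 10 CPM against 11.4 to 36 CPM (-1.32). IRX2 (GeneID 102147313), an Iroquois homeobox factor, had 0.695, 0.0602, 1.05 and 0.849 CPM, against 1.77 to 22.2 CPM (median 7.49), with no overlap (-3.66, SE 0.40, adjusted p = 0.000363), and its relative IRX1 fell as well (-4.40). The single riser was TBX2, a T-box repressor, at 78, 39.5, 53.3 and 59.5 CPM against 8.98 to 39.9 CPM (1.66). RARB, a retinoic acid receptor, was the 1 gene called of 22 in the retinoic acid list (4.55%, against 3.25% of all tested genes). It had 5.3 to 7.25 CPM in the infrarenal libraries against 8.89 to 19.7 CPM (-1.17).

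Notch signalling passes between touching cells, from ligands such as JAG1 to receptors whose cleaved tail turns on HES and HEY repressors. Of 31 tested Notch genes 3 rose (9.68%, against 1.31% of all tested genes) and 0 fell, with a list median of 0.01 and 28 genes not called in either fit. JAG1 (GeneID 102132875), a ligand, had 275, 272, 339 and 298 CPM in the infrarenal libraries, against 70 to 181 CPM (median 110) in the others, with no overlap (1.36, SE 0.15, adjusted p = 0.000315). HES4 (GeneID 102120050), a repressor, had 215, 84.7, 72.5 and 58.9 CPM, against 8.71 to 53.5 CPM (median 17.3), with no overlap. Infrarenal replicate 1 was far above the other infrarenal libraries there, and the difference was 2.29 with it and 1.88 without it (adjusted p = 0.00112 and 0.00502). HES1 had 79.3, 26.3, 25.4 and 32.9 CPM, against 5.25 to 35.5 CPM, and was not called (0.89, adjusted p = 0.171). NOTCH1 (0.62), NOTCH2 (-0.17) and NOTCH4 (0.32), the other receptors, were not called, nor were the repressors HEY1 (-0.12), HEY2 (0.21) and HEYL (0.11, and -0.13 without infrarenal replicate 1). These 6 genes were chosen after their values were seen.

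Pericyte and mural cell markers, a list that holds NOTCH3, had 4 of 10 tested genes higher (40%, against 1.31% of all tested genes) and 0 lower. PDGFRB, the receptor of platelet-derived growth factor on mural cells, had 317, 370, 361 and 360 CPM in the infrarenal libraries, against 161 to 273 CPM (median 223), with no overlap (0.69, SE 0.10, adjusted p = 0.00165). Its call was lost without number 2 (adjusted p up to 0.0552). MCAM, an adhesion molecule, had 1570 to 2030 CPM against 586 to 1720 CPM (1.13). KCNJ8, a potassium channel of pericytes, had 111, 49.6, 43.3 and 39.2 CPM against 28.3 to 41.9 CPM, with replicate 1 far above the rest, and its difference was 0.79 with it and 0.46 without it (adjusted p = 0.0181 and 0.0147). RGS5 (-0.06, and 0.26 without infrarenal replicate 1) and CSPG4 (0.51), which define these cells, were not called, and RGS5 varied between 1720 and 3920 CPM in the infrarenal and 739 and 6410 CPM in the other libraries. The list summed to 5270 to 7140 CPM in the infrarenal libraries, against 2020 to 8440 CPM in the others, and smooth muscle itself expresses several members. In whole tissue, more cells of a type and more RNA per cell cannot be told apart.

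Potassium channels, which set the membrane potential of smooth muscle, changed in both directions. Of 51 tested genes 9 rose and 6 fell in both fits (29.4% called, against 3.25% of all tested genes), and the list median was -0.06. KCNT2 (GeneID 102132195), a sodium-activated channel, had 12, 51.6, 20.1 and 30.7 CPM in the infrarenal libraries, against 0.371 to 10.3 CPM (median 1.39), with no overlap (3.86, SE 0.39, adjusted p = 0.00025). KCNAB1 (GeneID 101866714), an accessory subunit of voltage-gated channels, had 50.9, 106, 54.4 and 33.1 CPM, against 1 to 24.9 CPM (median 3.02), also with no overlap (3.86, SE 0.40, adjusted p = 0.000266). KCNA5 (GeneID 102127862), a voltage-gated channel of vascular muscle, had 89.4, 57.2, 64.1 and 115 CPM, against 6.63 to 39.2 CPM (median 21.8), with no overlap (1.91, SE 0.25, adjusted p = 0.000906). Its relative KCNA2 had 9.57 to 21.9 CPM against 1.67 to 9.57 CPM (2.18). KCNB2, another voltage-gated channel, was scarce, with 150 counts over the infrarenal libraries, against 31 over the suprarenal, 1 over the descending and 0 over the ascending ones.

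Other potassium channel genes were called as well, and KCNE2, KCNQ5, KCNJ3, KCNE1, KCNJ15, KCNG1 and KCNH2 were chosen for mention after their values were seen. The accessory subunit KCNE2 rose, at 20.3, 9.21, 2.62 and 5.66 CPM in the infrarenal libraries against 0.485 to 3.73 CPM (2.44), with overlap. Its gene overlaps MRPS6 and SLC5A3 in the annotation, so its reads may not all be its own. KCNE1, a relative of KCNE2, fell, at 4.25, 0.662, 3.74 and 6 CPM against 8.06 to 43.5 CPM (-2.74), with no overlap between the groups. KCNJ15, an inward rectifier, was almost undetected in the infrarenal libraries, at 0 to 0.154 CPM, against 0.423 to 21.1 CPM (-6.06), whereas the inward rectifier KCNJ3 rose (2.78). KCNQ5, of the KCNQ family that opens near rest, rose, at 5.48 to 7.36 CPM against 1.17 to 5.14 CPM (1.17). Calls were lost without infrarenal replicate 4 for KCNJ3 (adjusted p up to 0.205), without replicate 2 or 3 for KCNQ5 (up to 0.158), and without replicate 2, 3 or 4 for KCNG1, which fell by 1.94 (up to 0.203). KCNH2 was called with 16 libraries (1.59) and not without infrarenal replicate 1 (1.27, adjusted p = 0.0691). Of 59 calcium, sodium and chloride channel genes 2 rose and 2 fell (6.78% called, against 3.25%). The T-type calcium channel CACNA1H had 70.6, 52.6, 92.2 and 106 CPM in the infrarenal libraries, against 5.99 to 46.6 CPM (2.46, SE 0.35, adjusted p = 0.00166), with no overlap.

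**Figure D2:**
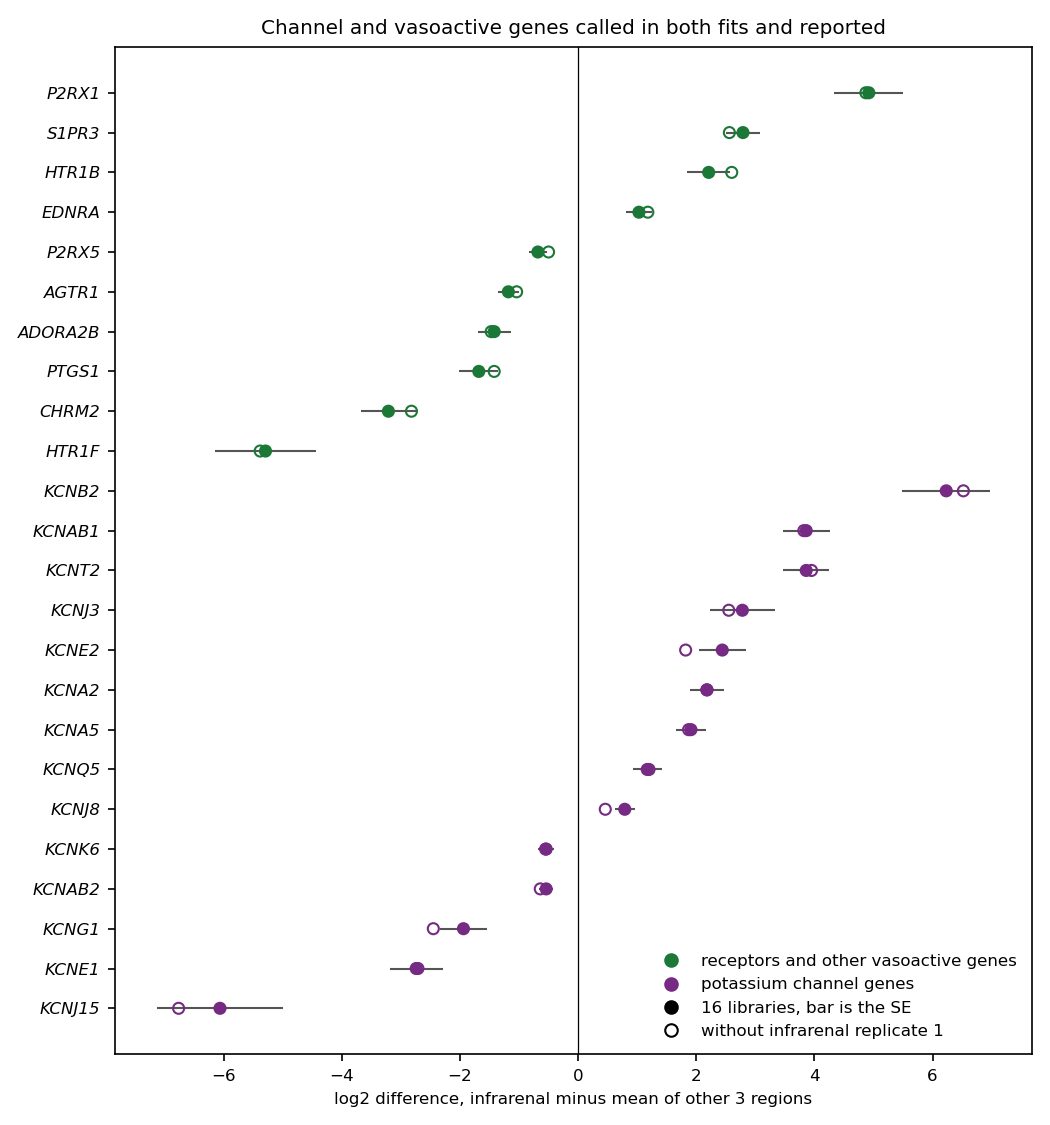
Log2 differences (infrarenal minus the mean of the other 3 regions) of the potassium channel and vasoactive genes called in both fits and reported here, with filled points for 16 libraries (bar, SE) and open points without infrarenal replicate 1. Potassium channel genes (purple) run from KCNB2 at 6.23 to KCNJ15 at -6.06, and receptor and other vasoactive genes (green) from P2RX1 at 4.92 to HTR1F at -5.29. Fitted values of KCNB2 and HTR1F depend on how regions with 0 or 1 count are treated.

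Receptors for vasoactive signals also split, with 4 of 76 tested genes higher and 6 lower in both fits (13.2% called, against 3.25% of all tested genes). P2RX1 (GeneID 102146852), an ATP-gated cation channel through which sympathetic nerves contract smooth muscle, had 230, 246, 164 and 121 CPM in the infrarenal libraries, against 0.908 to 111 CPM (median 3.78) in the others. The highest of the others was a suprarenal library, the groups did not overlap, and the difference was 4.92 (SE 0.58, adjusted p = 0.000585). S1PR3 (GeneID 102126442), a receptor of sphingosine 1-phosphate, had 176, 222, 143 and 265 CPM, against 10.8 to 121 CPM (median 27), with no overlap (2.79, SE 0.30, adjusted p = 0.000275). The serotonin receptor HTR1B rose, at 14.8 to 30.7 CPM against 0.971 to 26.1 CPM (2.21), though it was not called without the number as a block (adjusted p up to 0.295). So did the endothelin receptor EDNRA, at 20.6 to 40 CPM against 8.77 to 29.3 CPM (1.03), whose call did not survive the removal of infrarenal replicate 2 or 4 (adjusted p up to 0.289).

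Of the 6 vasoactive genes that fell, 5 encode receptors, and CHRM2, AGTR1 and HTR1F of these are given first. CHRM2 (GeneID 102141940), a muscarinic acetylcholine receptor, had 0.386, 3.67, 2.62 and 2.32 CPM in the infrarenal libraries, against 4.37 to 65.4 CPM (median 18.6), all below the rest (-3.21, SE 0.47, adjusted p = 0.00195). AGTR1 (GeneID 102130940), the main receptor of angiotensin II, had 18, 27.6, 14.1 and 10.4 CPM, against 16.8 to 77.4 CPM (median 38.6), with overlap (-1.18, SE 0.18, adjusted p = 0.00208), and it was not called in the fits without the number as a block (adjusted p up to 0.20). HTR1F, a serotonin receptor, had 1 count over the 4 infrarenal libraries, against 215 over the other 12, a ratio per total count of 0.0141 (95% counting interval 0.000356 to 0.0795, which covers counting error only). PTGS1, a cyclooxygenase chosen after its values were seen, fell to 32.3, 35.2, 79.3 and 36.7 CPM in the infrarenal libraries, against 87.4 to 231 CPM (-1.68), and leaving out infrarenal replicate 2 or 4 ended its call (adjusted p up to 0.144). The adenosine receptor ADORA2B, also chosen after its values were seen, had 2.08, 1.26, 1.57 and 2.21 CPM in the infrarenal libraries, against 1.82 to 7.21 CPM, with overlap (-1.42, adjusted p = 0.0109). Removing infrarenal replicate 2 or 3 ended its call, with an adjusted p of at most 0.113. The last of the 6 was the ATP-gated receptor channel P2RX5, chosen likewise, at 7.8 to 32.3 CPM against 18.1 to 56.9 CPM (-0.68). The adrenergic receptor ADRA1A, at 43.5 to 97.1 CPM against 5.38 to 208 CPM, was not called (-0.41). Of 41 genes of cyclic nucleotide signalling, RGS2, a brake on receptor signals in vascular muscle, had 88.6, 85.6, 70.1 and 30.5 CPM in the infrarenal libraries, against 7.04 to 36.8 CPM (2.10, SE 0.29, adjusted p = 0.00113).

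Secreted signals and their antagonists changed in a few strong members. Of 53 growth factor and angiogenic genes 4 rose (7.55%, against 1.31% of all tested genes) and 0 fell. ANGPT2 (GeneID 101925495), an angiopoietin that acts on the endothelial TIE2 receptor, had 45.9, 118, 70.9 and 99.3 CPM in the infrarenal libraries, against 2.04 to 30 CPM (median 5.64), with no overlap (3.48, SE 0.41, adjusted p = 0.000579). FGF1, a fibroblast growth factor, had 19 to 35.6 CPM against 1.61 to 20.3 CPM (1.84), and CCN4, a matricellular protein, 4.7 to 13 CPM against 0.606 to 8.09 CPM (1.91). Among 53 BMP and TGF-beta genes 3 rose and 3 fell (11.3% called, against 3.25%). GREM1 (GeneID 102122681), a secreted BMP antagonist, had 22.8, 72, 41 and 21.5 CPM, against 0.361 to 11 CPM (median 2.12), with no overlap (4.15, SE 0.49, adjusted p = 0.000547). The ligands BMP3 (-3.16) and GDF7 (-1.23) and the decoy receptor BAMBI (-1.24) fell, of which GDF7 was not called without the number as a block (adjusted p up to 0.142). The ligands BMP4 (0.18) and TGFB1 (0.37) were not called, and the risers THBS1 (1.25) and ACVR2B (0.76) lost their call in 15 and 19 of 30 other settings (adjusted p up to 0.357 and 0.42). Of 43 WNT genes 4.65% were called in both fits, against 3.25% of all tested genes. The enhancer RSPO2 fell (-4.54), at 0 to 0.903 CPM against 2.68 to 34.8 CPM. TCF7L2, a nuclear effector, rose (0.65), a call lost without infrarenal replicate 3 (adjusted p up to 0.143). In the hedgehog list of 14 genes 7.14% were called in both fits, against 3.25% of all tested genes. SUFU, an inhibitor, was called at 0.53 in the fit of 16 libraries and lost its call in 20 of 30 other settings (adjusted p up to 0.416).

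Of 24 tested elastic fibre genes 3 fell in both fits (12.5%, against 1.94% of all tested genes) and 0 rose. The list median was -0.29 and 20 of 24 differences were negative, against 0.01 and 7788 of 15921 over all tested genes. The mean level of the list was lower in each infrarenal library (-0.37 to -0.31 on the centred log2 scale) than in each of the 12 others (-0.09 to 0.31). The summed level of the list did overlap, at 8810 to 12200 CPM in the infrarenal libraries against 9180 to 14400 CPM in the others. EMILIN2 (GeneID 102120455), a glycoprotein of elastic fibres, had 68.9, 74.9, 86.6 and 70.7 CPM in the infrarenal libraries, against 103 to 236 CPM (median 150), with no overlap (-1.0, SE 0.14, adjusted p = 0.00126). The microfibril protein MFAP5 had 103, 265, 195 and 126 CPM, against 68 to 1260 CPM (median 438), and differed by -1.32 (adjusted p = 0.00349), or -1.62 without infrarenal replicate 1, but was not called without the number as a block (adjusted p up to 0.328). MFAP2, also of microfibrils, had 12.9 to 23.2 CPM against 16.6 to 63.7 CPM (-0.97). FBLN5, needed to assemble elastic fibres, was just short of a call, at 374 to 707 CPM against 553 to 1220 CPM (-0.68, adjusted p = 0.0789). LOX, which crosslinks tropoelastin, was not called (-1.17, adjusted p = 0.138). FBN2, a fibrillin, lost its call without infrarenal replicate 1 (-1.25, adjusted p = 0.0944). Both LOX and FBN2 were chosen after their values were seen. Fibroblast markers, some of whose members are matrix genes, summed to 6770 to 12600 CPM in the infrarenal libraries, against 4460 to 11700 CPM in the others, and their part in these values was not tested.

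The list of fibrillar and fibril-associated collagens also holds the short-chain collagen COL8A1. Of its 23 tested genes 3, COL8A1 among them, rose and 1 fell in both fits (17.4% called, against 3.25% of all tested genes). In neither fit were 18 of them called. COL8A1 (GeneID 102140466), a short-chain collagen of vessel walls, had 708, 720, 489 and 498 CPM in the infrarenal libraries, against 18.5 to 248 CPM (median 56.9), with no overlap (3.21, SE 0.34, adjusted p = 0.000303). COL21A1 (GeneID 102122134), a fibril-associated collagen, had 17.6, 18.1, 26.5 and 6.91 CPM, against 33 to 115 CPM (median 64), all below the rest (-1.99, SE 0.22, adjusted p = 0.000363). COL1A1 rose (1.01), at 1690 to 4470 CPM against 583 to 2620 CPM, mostly against the ascending libraries. Its log2 difference was 0.43 (SE 0.295) from the suprarenal, 0.56 (SE 0.296) from the descending and 2.04 (SE 0.305) from the ascending aorta. COL12A1 rose as well (1.21). Both calls were lost without infrarenal replicate 2 or 4, that of COL1A1 also without ascending replicate 2 (adjusted p up to 0.253 and 0.169). COL3A1 (0.34) and COL5A1 (0.12), which form fibrils with COL1A1, were not called. Of 28 basement membrane genes 1 rose and 3 fell (14.3% called, against 3.25% of all tested genes), and 23 were not called in either fit. COL4A3 (GeneID 102122146), a chain of type IV collagen, had 10.6, 9.94, 8.59 and 14.4 CPM in the infrarenal libraries, against 24.4 to 114 CPM (median 77.1), with no overlap (-2.64, SE 0.23, adjusted p = 0.000123). COL4A4, which pairs with it and overlaps it in the annotation, differed by -1.90, while COL4A1, the common chain, was not called (0.28). NTN4 (GeneID 102145041), a netrin of basement membranes, had 79.1, 128, 153 and 130 CPM against 243 to 399 CPM (median 313), with no overlap (-1.34, SE 0.19, adjusted p = 0.00131). SULF2, an enzyme that trims heparan sulfate, had 28.7, 28.6, 33.5 and 65.6 CPM against 67 to 211 CPM (-1.68, SE 0.18, adjusted p = 0.000315), all below the rest although replicate 4 came close.

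Genes of the contractile apparatus showed little difference. Of 44 tested, 1 (MCAM) was called in both fits (2.27%, against 3.25% of all tested genes), and the list median was 0.12, or 0.05 without infrarenal replicate 1. ACTA2, smooth muscle actin, had 18600, 6660, 5750 and 6890 CPM in the infrarenal libraries, against 3810 to 7200 CPM (median 5890). Replicate 1 alone lay above the others, and the difference was 0.61 (adjusted p = 0.273), or 0.17 without it. CNN1, a calponin, changed sign without that library (0.13 and -0.11), and MYH11 was not called (-0.50). DES, the intermediate filament desmin, had 767, 748, 624 and 534 CPM against 112 to 765 CPM (median 344), and was called with 16 libraries (1.03, adjusted p = 0.0319) but not without replicate 1 (0.94, adjusted p = 0.0941) nor in 16 of the other settings. The oxidative phosphorylation list, 47 genes with 0 called in either fit, had a median of 0.29 with replicate 1 and -0.05 without it.

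Neuronal and synaptic genes that were called mostly fell. Of 62 tested, 12 fell and 3 rose in both fits (24.2% called, against 3.25% of all tested genes), and the list median was -0.54, or -0.32 without infrarenal replicate 1. NPTX2 (GeneID 102124018), a neuronal pentraxin, had 15.8, 1.32, 0.393 and 8.27 CPM in the infrarenal libraries, against 30.8 to 371 CPM (median 138), all below the rest (-5.13, SE 0.62, adjusted p = 0.000688). RBFOX1 (GeneID 101866148), a splicing regulator of neurons and muscle, had 0, 0, 0.197 and 0.17 CPM, against 1.39 to 65.2 CPM (median 19.9), with no overlap (-7.73, SE 0.90, adjusted p = 0.000521). NLGN4X, a postsynaptic adhesion protein, had 2.86, 2.95, 2.82 and 3.91 CPM, against 6.8 to 14.2 CPM (-1.65), also with no overlap. The glutamate receptor subunit GRIA3 (-1.76), chosen after its values were seen, also had every infrarenal library below the rest. PCP4 (GeneID 102142583), a calmodulin-binding peptide, rose, with 11.4, 4.88, 2.82 and 5.1 CPM in the infrarenal libraries, against 0 to 0.166 CPM in the other 12. NKAIN2 (GeneID 102117837), a partner of the sodium pump, had 36.7, 47, 33.9 and 36.4 CPM, against 0 to 27.5 CPM (median 1.86), with no overlap (5.04, SE 0.45, adjusted p = 0.000138). TENM3 (GeneID 102125883), a teneurin of cell recognition, had 52.1, 57.8, 38.5 and 42.1 CPM, against 4.2 to 33.5 CPM (median 17.1), with no overlap (1.90, SE 0.16, adjusted p = 0.000104).

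Axon guidance genes gave 9 lower and 2 higher of 75 tested (14.7% called, against 3.25% of all tested genes), with a median of -0.05. PLXNB3 (GeneID 102122304), a semaphorin receptor, had 1.31, 1.93, 2.23 and 1.36 CPM in the infrarenal libraries, against 5.55 to 27.4 CPM (median 10.1), with no overlap (-2.70, SE 0.26, adjusted p = 0.000211). CRMP1 (GeneID 102120233), a phosphoprotein that relays semaphorin signals, had 0.618, 0.783, 3.8 and 0.849 CPM, against 10.8 to 46.1 CPM (median 22.9), all below the rest (-4.06, SE 0.53, adjusted p = 0.000928). Its relative DPYSL5, chosen after its values were seen, rose, at 15.2 to 25.3 CPM against 0.121 to 10.3 CPM (3.96), a call lost without infrarenal replicate 3 (adjusted p = 0.087 at most). SEMA3C, a secreted semaphorin also chosen after its values were seen, fell (-1.61) and lost its call without infrarenal replicate 2 (adjusted p up to 0.0849). SLIT3, a guidance ligand that muscle secretes, rose, at 252, 273, 250 and 457 CPM against 73.4 to 284 CPM (0.91, SE 0.14, adjusted p = 0.00277). Of 13 Schwann cell markers tested, 1 fell (7.69%, against 1.94% of all tested genes) and the list median was -0.48. The 1 that fell was NCAM1 (-0.80), a call lost without infrarenal replicate 2 or 4. The whole marker list summed to 607 to 676 CPM in the infrarenal libraries and 697 to 975 CPM in the 12 others, so the sums did not overlap. The mean centred log2 level of the tested markers did overlap, at -0.92 to 0.57 in the infrarenal libraries against -0.38 to 1.18 in the others. No marker was at 0 in all libraries. The glial factor SOX10 (-1.27), chosen after its values were seen, was not called. The part of nerve content in the neuronal and guidance genes was not tested.

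Among the 12 called genes with the smallest p in each direction were also genes outside these lists. Of those that rose, PTCHD1 (GeneID 101865201), a patched-domain membrane protein, had 11.8, 12.6, 11.9 and 11 CPM in the infrarenal libraries, against 0.181 to 8.76 CPM (median 2.04), with no overlap (2.93, SE 0.25, adjusted p = 0.000104). CTNNA3 (GeneID 102137432), an alpha catenin of cell junctions, had 34.6, 29.6, 49.9 and 39.2 CPM, against 0.545 to 13.2 CPM (median 1.43), with no overlap (4.28, SE 0.41, adjusted p = 0.000207). PARM1 (GeneID 102116778), a mucin-like membrane protein, had 428, 508, 261 and 308 CPM, against 66.3 to 327 CPM (median 117), with overlap between regions but a difference of 1.25 to 1.79 within each of the 4 numbers. The receptor gene GPR21 (GeneID 102117894), with 6.25, 15.4, 8.26 and 15.5 CPM against 0.723 to 3.9 CPM (2.60), lies within RABGAP1 in the annotation, so its reads cannot be told from those of its host. All 12 genes that rose by this rule, among them HOXA10, HOXC4, NOTCH3 and KCNT2, kept their call in each of 30 other settings. They were chosen by smallest p among genes called with and without infrarenal replicate 1, and those settings reuse the same libraries. Keeping the call thus follows in part from the choice and is no separate test.

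**Figure D3:**
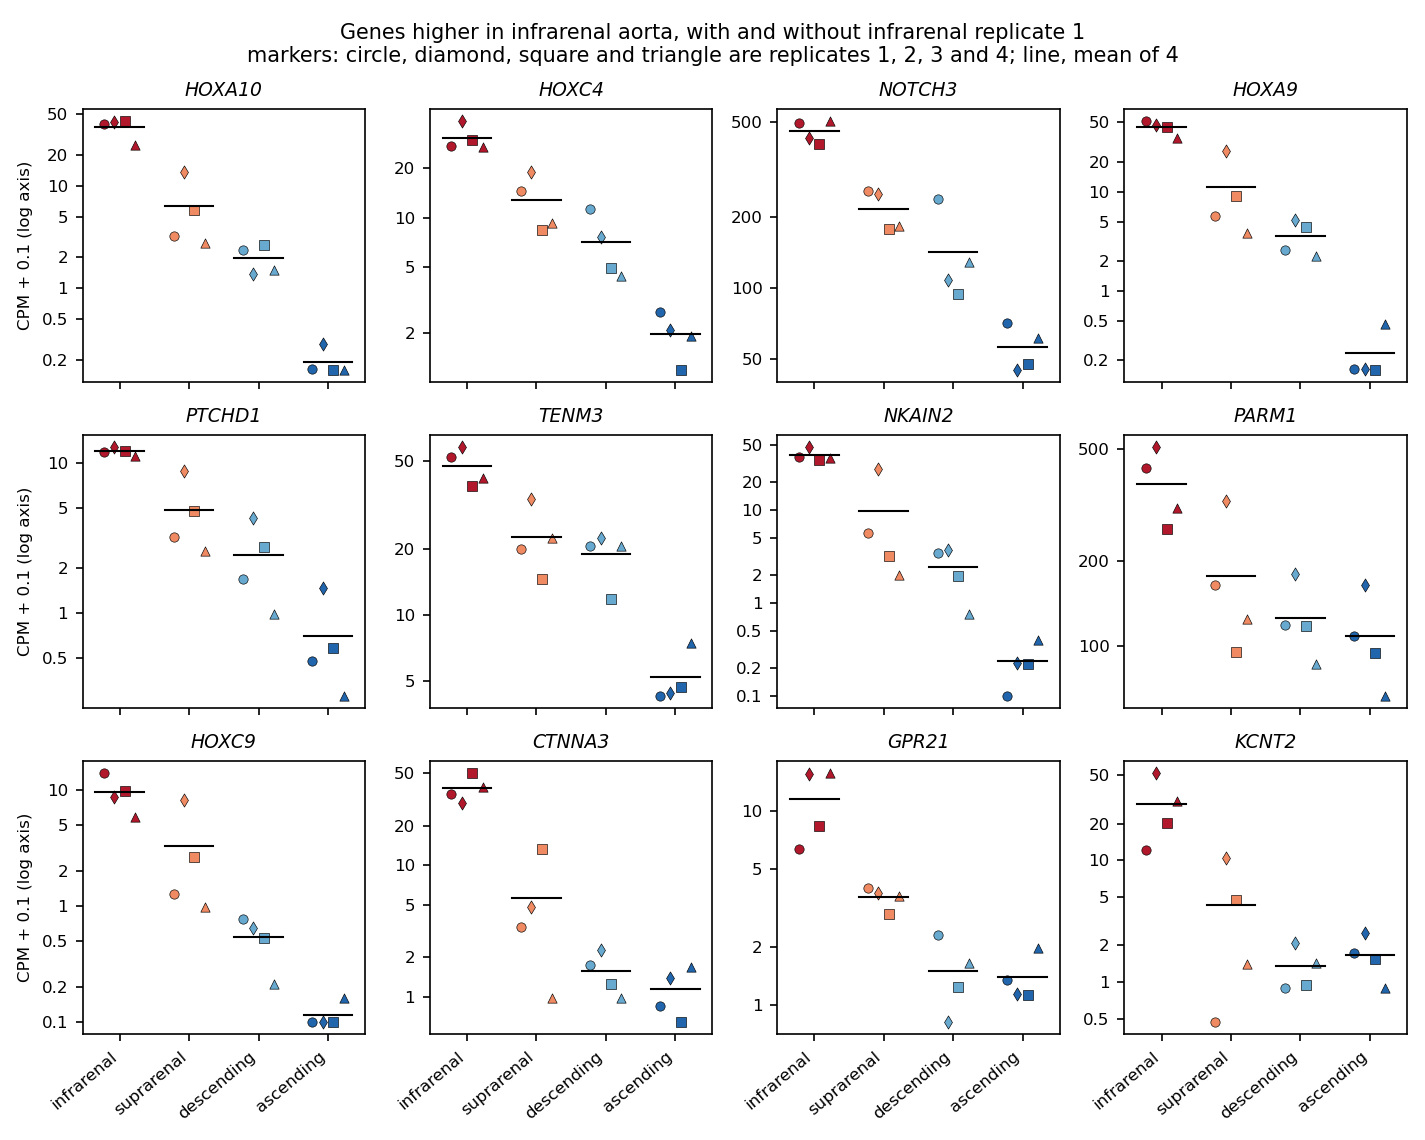
Level of the 12 rising genes with the smallest p, as CPM + 0.1 on a log axis, in the infrarenal, suprarenal, descending and ascending aorta, with a marker for each replicate and a line for the mean of 4. The infrarenal points lie above all others for 10 of the 12 genes, with overlap for PARM1 and HOXC9.

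Of the 12 that fell, PLEKHG5 (GeneID 101865781), a guanine nucleotide exchange factor, had 31.2, 19.6, 26.6 and 22.8 CPM in the infrarenal libraries, against 45.4 to 116 CPM (median 72), with no overlap (-1.59, SE 0.16, adjusted p = 0.000212). MTUS2 (GeneID 101926596), a microtubule-associated protein, had 11.7, 13.5, 14 and 8.78 CPM, against 31.5 to 148 CPM (median 85.5), with no overlap (-2.88, SE 0.29, adjusted p = 0.00025). MYOZ2 (GeneID 102136090), a protein of muscle Z-discs, had 11.7, 10.1, 21.1 and 17.2 CPM, against 37.4 to 181 CPM (median 94.5), with no overlap (-2.68, SE 0.28, adjusted p = 0.000275). SLC17A7 (GeneID 101867437), a vesicular glutamate transporter, had 11.5, 7.35, 15.3 and 7.87 CPM, against 18.4 to 75.5 CPM (median 36.5), with no overlap (-1.94). KLHL4 (GeneID 101925929), of the kelch family, had 0.396 to 0.903 CPM against 2.58 to 6.9 CPM (-2.76). PIANP (GeneID 102118946) was almost an ascending gene, with an infrarenal mean of 0.298 ± 0.153 CPM, against 1.18 ± 0.873 CPM for the suprarenal, 1.71 ± 1.28 CPM for the descending and 21.7 ± 5.98 CPM for the ascending libraries (SD, n = 4 each), and the infrarenal range overlapped with the suprarenal one (-3.52). All 12 genes that fell by this rule, among them COL4A3, PLXNB3, SULF2, COL21A1, IRX2 and GATA5, also kept their call in each of 30 other settings. This too follows in part from how they were chosen and is no separate test.

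**Figure D4:**
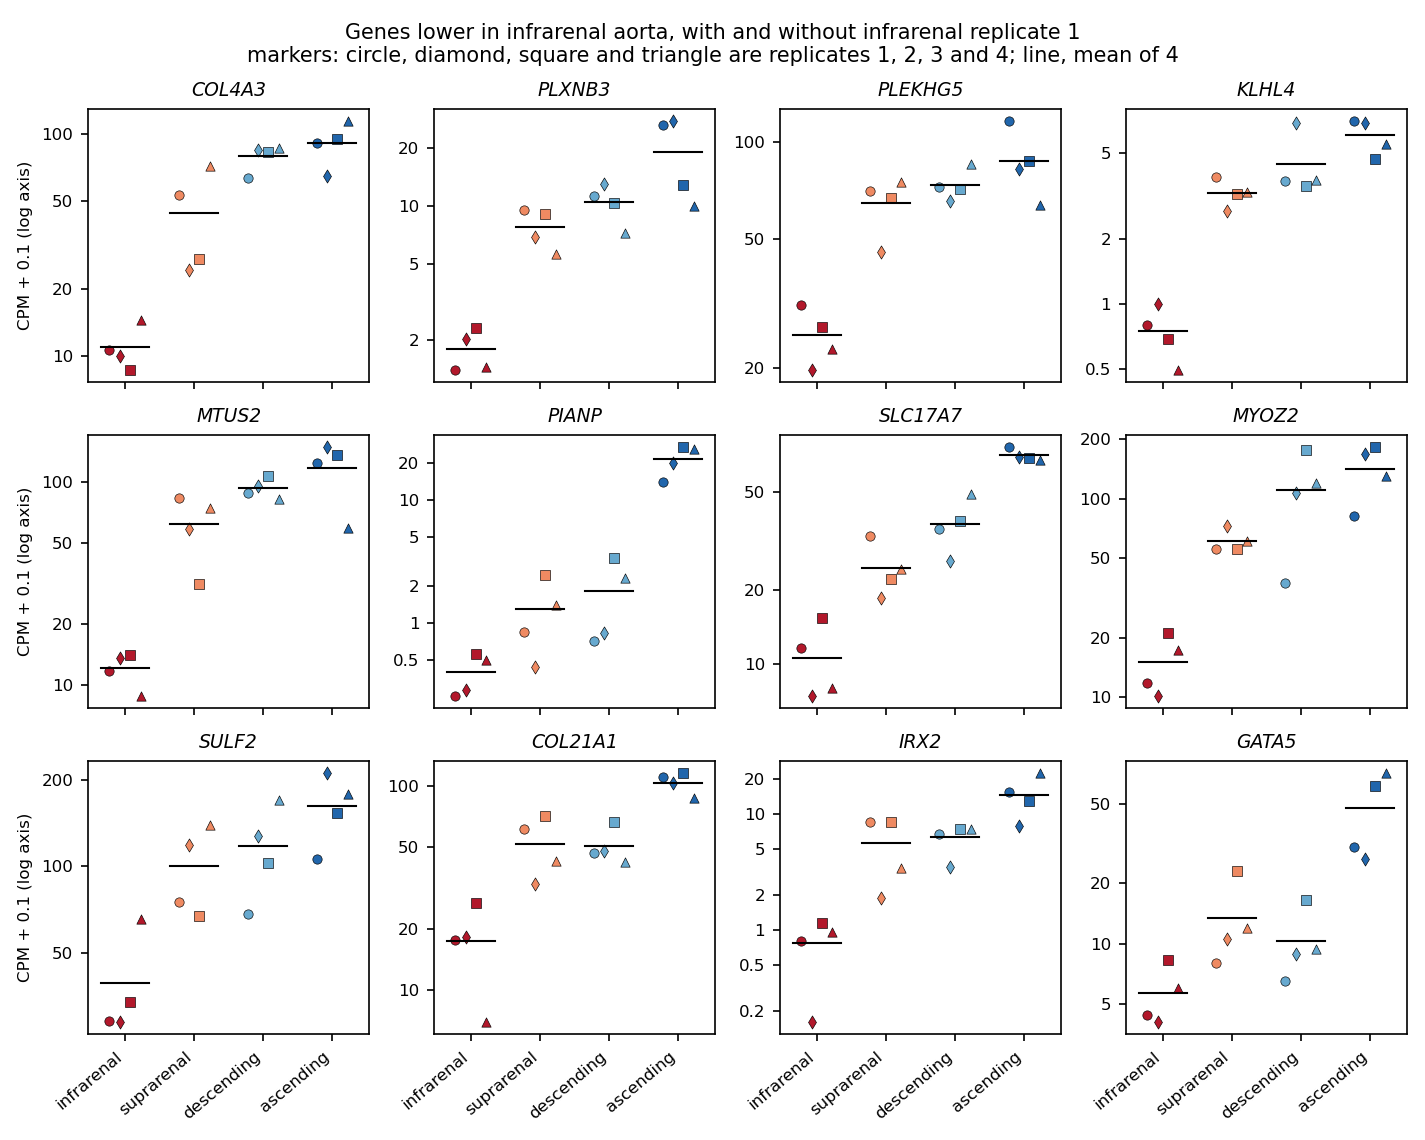
Level of the 12 falling genes with the smallest p, as CPM + 0.1 on a log axis, in the infrarenal, suprarenal, descending and ascending aorta, with a marker for each replicate and a line for the mean of 4. The infrarenal points lie below all others for 10 of the 12 genes, with overlap for PIANP and GATA5.

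The suprarenal aorta, the neighbouring segment, lay closest to the infrarenal level. It was the nearest of the 3 regions for each of the 12 rising genes, for 10 of the 12 falling ones, for 183 of the 209 genes higher in both fits (87.6%) and for 255 of the 309 lower in both (82.5%), against 42.3% of all tested genes. These counts describe genes chosen from the same contrast and were not tested.

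Leaving out infrarenal replicate 1 changed which genes were called. A total of 162 calls were lost, 69 higher and 93 lower, and 251 genes tested in both fits were called only without it, 100 higher and 151 lower. Of the 100 higher ones, 0% had a level in replicate 1 above the mean of infrarenal replicates 2 to 4 (median -1.23 on the log2 scale), and of the 151 lower ones 97.4% did (median 1.19), beside 46.7% and -0.09 for all tested genes. These shares follow from how the genes were chosen and are no test. ECM2, an extracellular matrix protein, had 86.9 CPM in replicate 1 and 215, 190 and 301 CPM in the other infrarenal libraries, against 93.6 to 171 CPM (0.66, adjusted p = 0.0621, and 0.92, adjusted p = 0.000971, without replicate 1). HSPA2, a heat shock protein, had 5.17 CPM and 22.8, 24.9 and 22.5 CPM, against 6.14 to 12.9 CPM (1.40 without replicate 1). HSD17B14, a steroid dehydrogenase, had 13.9 CPM in replicate 1 and 1.39, 2.49 and 0.962 CPM in the others, against 6.08 to 12.8 CPM (-1.5, and -2.51 without replicate 1). MYL6B, a myosin light chain, had 87.7 CPM and 24.4, 23.6 and 16.8 CPM, against 35.7 to 66.6 CPM (-0.53 and -1.11). For each of these 4 genes infrarenal replicates 2 to 4 lay on one side of the other 12 libraries and replicate 1 on the opposite side. Among the most abundant genes that lost their call were CRYAB, a small heat shock protein, at 1190, 635, 452 and 582 CPM against 151 to 530 CPM (1.20, and 0.62 without replicate 1), and MAGED2, at 793, 450, 332 and 436 CPM against 188 to 350 CPM (0.77 and 0.55).

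Few markers of other cell types were called, while some lists leaned to one side. Without infrarenal replicate 1, 17 of 18 endothelial markers (median 0.55) and 11 of 12 white adipocyte markers (0.68) had positive differences, and 11 of 11 macrophage (-0.60) and 7 of 7 mesothelial markers (-0.82) negative ones. Over all tested genes 7990 differences were positive and 7927 negative in that fit. With 16 libraries the counts were 14 of 18, 10 of 12, 10 of 11 and 5 of 7. The medians were then 0.32 for endothelial, 0.18 for white adipocyte, -0.39 for macrophage and -0.46 for mesothelial markers. Markers of a list share the same libraries, so these counts are no test. Mean centred log2 levels in infrarenal, suprarenal, descending and ascending libraries were 0.22, 0.29, 1.08 and -1.59 for white adipocyte markers. For mesothelial markers they were -0.52, -0.37, 0.05 and 0.83. The infrarenal adipocyte level thus lay above the ascending one alone. The part of these cell types in the other results was not tested. Of 18 endothelial markers 1 rose (5.56%, against 1.31% of all tested genes), ESAM, at 363, 286, 329 and 320 CPM in the infrarenal libraries against 45.1 to 261 CPM (1.82, SE 0.35, adjusted p = 0.00997), with no overlap. The list summed to 1240 to 3600 CPM against 641 to 4680 CPM. White adipocyte (12 tested), macrophage (11), lymphocyte (7), mast cell (5) and cardiac (5) markers had 0 calls in either fit, and the complement and chemokine list had 0 of 30. White adipocyte markers varied within regions, from 2170 to 7410 CPM in the infrarenal and from 1090 to 5860 CPM in the other libraries. KRT8, a keratin of the mesothelial list, fell, at 2.95 to 9.65 CPM against 10.2 to 95.4 CPM (-2.70), PDPN of the lymphatic list differed by -2.66, and FABP3 of the brown adipocyte list rose (2.28). CASQ1 and ACTN3 of the skeletal muscle list fell by 1.93 and 1.14 on the log2 scale, with calls lost without infrarenal replicate 2 for both. Adrenal and chromaffin markers, of which 1 was tested, summed to 33.6 CPM in infrarenal replicate 3, against 0.783 to 7.64 CPM in the other infrarenal libraries and 1.88 to 19.6 CPM elsewhere.

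**Figure D5:**
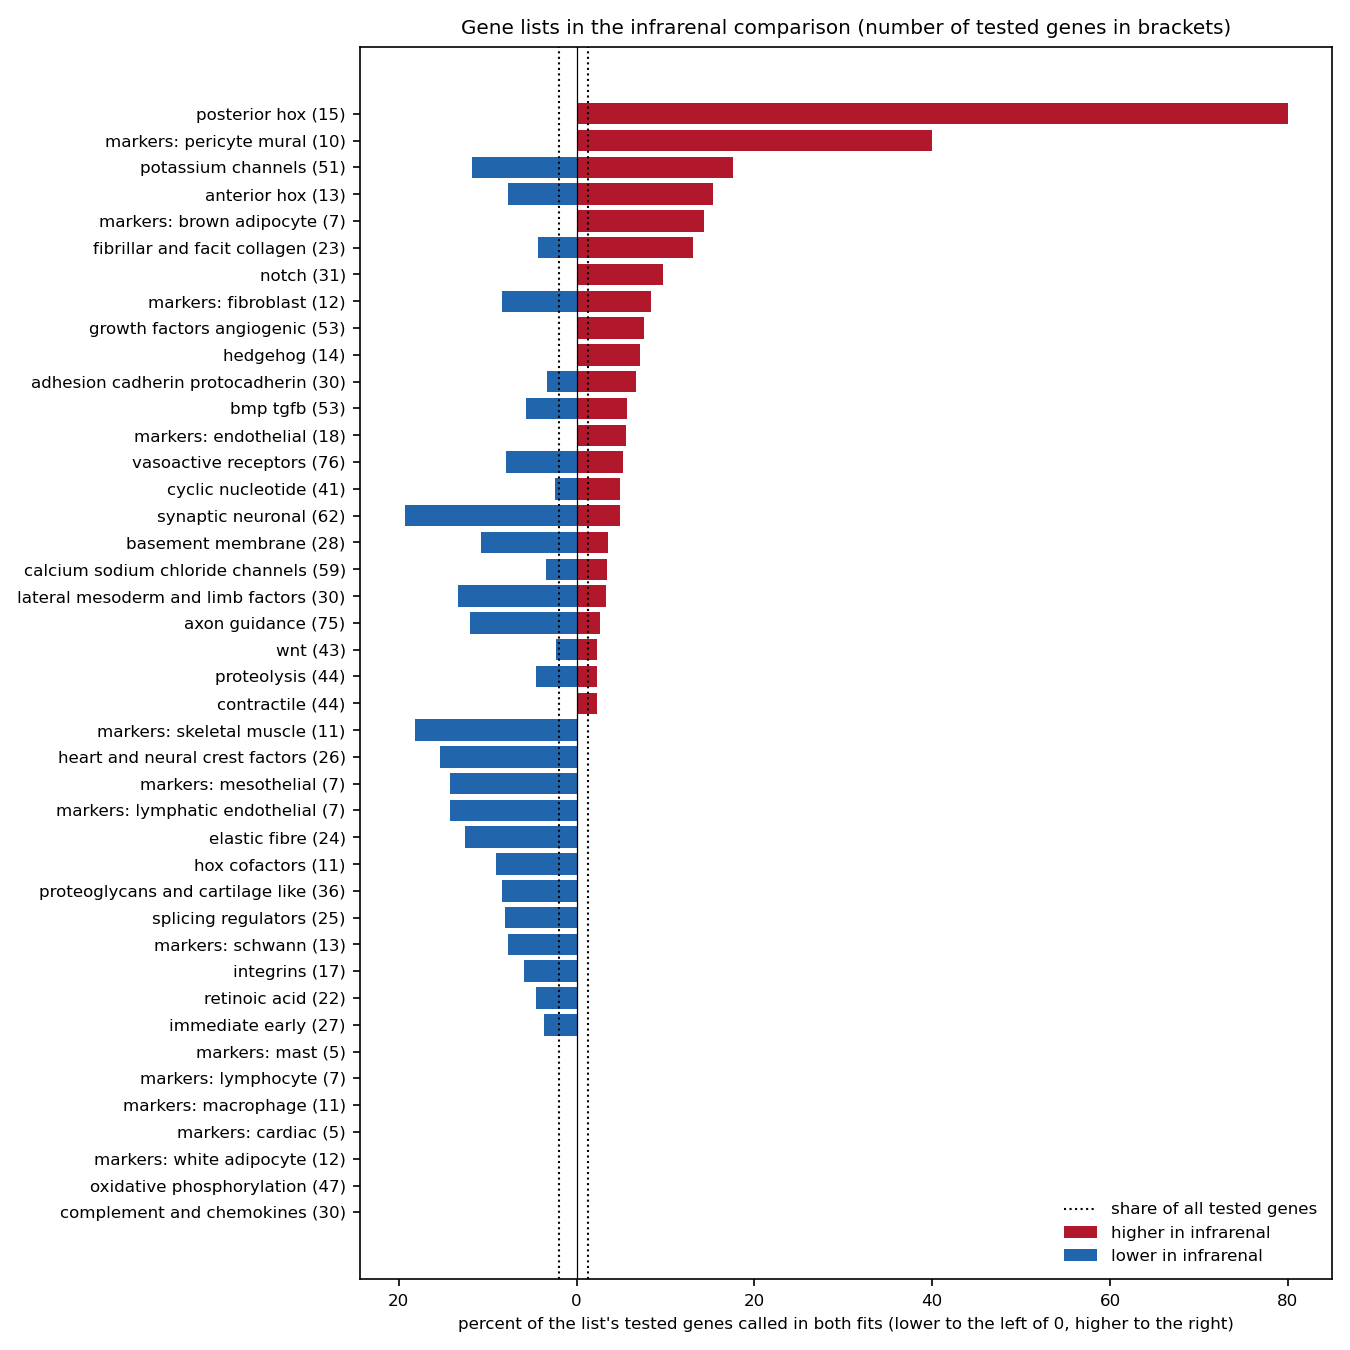
Share of each gene list's tested members that were called in both fits, in percent, with genes higher in the infrarenal aorta to the right of 0 and lower ones to the left, and dotted lines at the share of all tested genes (1.31% and 1.94%). Posterior HOX genes reach 80% to the right, the synaptic and neuronal list extends farthest to the left, and potassium channels extend both ways.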

How the data were processed

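RNA was extracted from 16 aortic samples, 4 from each of 4 regions, with a Qiagen fibrous-tissue kit and made into libraries with a NEBNext Ultra kit, per the labels' protocols. The authors deposited raw counts of reads per gene, named by NCBI GeneID. Among the tools in the submitters' processing notes are featureCounts 1.5.0-p3, HISAT2 2.0.5 and fastp. No source used here gives the genome build, the strand setting or the treatment of overlapping genes. Of the 24 genes named by smallest p, 11 overlap another gene in the annotation, and not every overlap is pointed out above. ANGPT2 overlaps MCPH1, CTNNA3 overlaps LRRTM3, FGF1 overlaps ARHGAP26 and CRMP1 overlaps EVC. FABP3 overlaps ZCCHC17, and SOX10 overlaps POLR2F. Aligned reads that favour short transcripts, as in infrarenal replicate 1, lower the measured level of long genes in that library.

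Of 32846 rows, 24 mitochondrial RNAs without a GeneID (0.0295% to 0.118% of counts per library) were left out. Symbols came from a RefSeq gene table, which named 24609 rows with a GeneID (75%) and 14661 of the tested genes (92.1%). Genes were kept by filterByExpr (minimum count 10, total 15), scaled with TMM factors and tested with the edgeR 4.0.16 quasi-likelihood F test in R 4.3.3, with region means and replicate number in the model and Benjamini-Hochberg adjustment over all 15921 genes. CPM values use TMM-scaled library sizes. SE is the log2 difference divided by the square root of F. The biological coefficient of variation was 0.322, with 9 residual degrees of freedom, or 8 without infrarenal replicate 1. Single values of NOTCH3, ELN and FBN1 were tested by exact permutation of log2 CPM with a prior count of 2. The counting interval and the floor of 3 counts reflect counting error alone. The procedure was tested on simulated data with known changes.

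The text names NOTCH3, ELN and FBN1, then in each direction the 12 genes with the smallest p among those called in both fits that have a symbol and average 1 or more in log2 CPM, up to 6 called and 3 defining genes of each list, and the genes that leaving out infrarenal replicate 1 changed most. Other genes are said to be chosen after their values were seen. The members and lists were chosen with earlier results of these data known. Alternatives were no replicate block, RLE factors, library totals, other filters, DESeq2 1.42.0, limma voom 3.58.1 and leaving out each library or number. A covariate for short against long transcripts, joint removals and the 15-library repeats were added after seeing the data. Some genes of the lists are counted but not reported here by name.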

Additional observations from a re-analysis of the deposited data

Results flagged for a closer look

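In 22 of 182 values checked, 1 infrarenal library lay far from the other 3 by Dixon's criterion for 4 samples, which chance alone meets in about 1 in 20 groups. The values are given with no explanation, and their cause was not tested.

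Infrarenal replicate 1 was the library apart in 14 of these, a tally partly set by the choice of genes, since HSPA2, HSD17B14, RHBDD3 and MYL6B were named because leaving it out changed them. It was above the other 3 infrarenal libraries for HSD17B14 (13.9 CPM against 0.962 to 2.49), RHBDD3 (58.5 against 16.9 to 20), MYL6B (87.7 against 16.8 to 24.4), HOXA7 (92.1 against 26.7 to 31.3), HES4 (215 against 58.9 to 84.7) and HES1 (79.3 against 25.4 to 32.9). It was also above them for GPC1 (67.9 against 33.5 to 39), ACTA2 (18600 against 5750 to 6890), DUSP1 (1050 against 326 to 354), KCNJ8 (111 against 39.2 to 49.6) and ACAN (48.6 against 5.38 to 11.8). It was below them for HSPA2 (5.17 CPM against 22.5 to 24.9) and ACVR2B (5.56 against 13.3 to 14.2). Its ribosomal protein genes stood apart too, at a mean centred log2 level of 1.38 against -0.35 to -0.08.

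Infrarenal replicate 4 was apart for HOXA10 (24.9 CPM against 40.1 to 42.6), SULF2 (65.6 against 28.6 to 33.5), SLIT3 (457 against 250 to 273) and NLGN4X (3.91 against 2.82 to 2.95). Infrarenal replicate 3 was apart for CRMP1 (3.8 against 0.618 to 0.849), PTGS1 (79.3 against 32.3 to 36.7), SOX10 (4.79 against 0.602 to 1.3) and HTR1F, for which it held the single count (0.0656 CPM against 0).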

How the results depend on the processing

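With 16 libraries, 680 genes were called. DESeq2 called 1218 (496 higher, 722 lower). Removing 3 libraries at once (infrarenal 1, suprarenal 3, ascending 4), chosen after seeing the data, gave 2506 (1218 higher, 1288 lower). Leaving out 1 library gave 339 (without infrarenal replicate 2) to 947 (without ascending replicate 4) calls, with 149 to 407 higher and 190 to 540 lower. Leaving out a number gave 203 (number 2) to 576 (number 1), with 104 to 234 higher and 99 to 342 lower. Without number 2 the calls of PDGFRB, SOX9, HAND2, RARB, BAMBI, SLIT3, KRT8, HOXC6, KCNE2 and KCNJ15 were lost (adjusted p up to 0.119). MEIS2 and MFAP2 lost theirs without number 2 or 4 (up to 0.0718 and 0.0704), and ESAM without number 1 or 2 (up to 0.0737). KCNJ8 lost its call without number 2, 3 or 4 (up to 0.103). Without the replicate block 474 genes were called (218 higher, the rest lower), 453 of them shared. The labels do not say that equal numbers share an animal. Of 24 same-number pairs 19 had a correlation of deviations over 0.1 (-0.173 to 0.575, median 0.344), and 15 of 16 libraries were closest on average to those of their own number, although ascending replicate 4 and suprarenal replicate 3 correlated most with each other (0.606). On the 15 libraries DESeq2 called 1318 (519 higher, 799 lower), and leaving out a further library gave 238 (infrarenal replicate 4) to 1195 (ascending replicate 4), with 91 to 531 higher and 135 (infrarenal replicate 2) to 687 (suprarenal replicate 3) lower. Leaving out 1 library moved ELN between -1.36 and -0.63 and FBN1 between -0.69 and -0.35. ELN passed with DESeq2 (-1.05, adjusted p = 0.0351), with the covariate (-0.67, 0.0197) and without the 3 libraries (-0.81, 0.00399), where FBN1 passed too (-0.44, 0.0472). By exact permutation, where 3 numbers allow no p under 0.0156, ELN gave -0.61 and -1.29 without number 1 and 2 (p = 0.109 and 0.0625), and FBN1 -0.33, -0.65 and -0.59 without number 1, 2 and 3 (p = 0.219, 0.0781 and 0.0781), with -1.53 and -0.71 without number 4.

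Among genes not called with 16 libraries, signs turned for CNN1 (up to 0.29 without infrarenal replicate 2, -0.11 without infrarenal replicate 1 or number 1, -0.18 without that library and the block, -0.25 without the 3 libraries), RGS5 (-0.20 without infrarenal replicate 4, 0.26 without infrarenal replicate 1, 0.25 without number 1, 0.09 without that library and the block, 0.40 with the covariate, and 0.05, 0.01, 0.01 and 0.11 without ascending 3, descending 3, suprarenal 1 and suprarenal 4), BMP4 (-0.12 without infrarenal replicate 2, 1.15 without the 3 libraries) and ADRA1A (0.13 with the covariate). DUSP15, called only without infrarenal replicate 1, was 0.39 to 0.47 (0.45, 0.40, 0.46) without infrarenal replicate 2, 3 or 4 or their numbers, and -1.66 without the 3 libraries. A correction for product length was not run, since no lengths of the gene products were at hand. The cause of these shifts was not tested. Depth was alike between regions, so it limits mainly genes with few counts, such as HTR1F and KCNB2.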
